A study of Danio rerio with 12 samples.

Results

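RNA from whole zebrafish that had met benzo[a]pyrene and diclofenac together was compared with RNA from control fish. The 2 groups are labelled Mixture and Control, each with 3 whole-body libraries described as independent replicates and a time of 48 h. The study also holds 3 libraries of B[a]P alone and 3 of diclofenac alone, which are not described here. Benzo[a]pyrene is a polycyclic aromatic hydrocarbon formed in combustion, and diclofenac is a non-steroidal anti-inflammatory drug. The labels give no dose, age, sex, strain or solvent. Of 35497 deposited entries, the 21622 that averaged at least 1 CPM (counts scaled to a common library total) over the whole fit were taken, and the other 13875 were left to the closing section. An entry is 1 transcript class (protein coding, retained intron and so on) of 1 gene identifier, and the 21622 entries cover 20703 identifiers and 19195 gene symbols. The authors' deposited table gives 1 log2 fold change, 1 likelihood ratio and 1 p-value per entry, so the spread between libraries enters only through that test, and values per library are not shown. Each fold below was computed from the deposited log2 fold change. Its 95% interval comes from the standard error implied by the likelihood ratio, and the CPM in brackets is the average over the fit.

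Benzo[a]pyrene binds the aryl hydrocarbon (Ah) receptor, a transcription factor that turns on cytochrome P450 family 1 enzymes, and these enzymes oxidise benzo[a]pyrene to products that can bind DNA. Diclofenac blocks the cyclooxygenases that make prostaglandins. Cells that meet reactive chemicals or damaged proteins are known to switch on immediate early factors of the Fos and Jun families, heat shock proteins, the Nrf2 antioxidant genes and the integrated stress response, which slows translation while raising Atf4 and its targets. The roles given to genes below are those known in zebrafish or, for most, in their mammalian counterparts.

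The authors' likelihood ratio p was adjusted by the Benjamini-Hochberg method across all 21622 entries, and an entry was called where the result was below 0.05. In all 3199 entries were called, which is 14.8% of those tested, with 1756 higher (8.12%) and 1443 lower (6.67%) in the Mixture. Unadjusted p was under 0.05 for 5784 entries, against 1081 under uniform p-values. The median log2 fold change of all tested entries was 0.02. Most changes were moderate, for the median fold was 1.87 among the higher and 1.84 among the lower entries, and 1324 entries (6.12%) also passed 2-fold, 770 higher and 554 lower. Large changes were mostly upward, with 76 entries at least 8-fold higher and 20 at least 8-fold lower. Called entries carried 16.3% (higher) and 13.1% (lower) of the summed average CPM.

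The share of entries called rose with abundance, from 6.93% between 1 and 2 CPM to 36% at 500 CPM or more, while the median implied standard error of the log2 fold change went from 0.49 to 0.21. The smallest fold called was 1.99 in the first of these classes and 1.37 in the last. Counts over abundant groups such as muscle, ribosome or lens genes therefore read against a higher background than 14.8%. Among the 29 entries called at 32-fold or more, 14 averaged under 5 CPM, with standard errors of up to 2.58 log2 units. Folds of such scarce entries depend on the prior count of the fit and give no firm size. In 1426 symbols several gene identifiers share a class, so reads may have been split between near-identical copies. Of 78 such symbols with more than 1 copy called, 76 moved 1 way and 2 moved both ways. These 2 were znf143b, with a copy at 1.00 CPM 130.1-fold higher and a copy at 1.34 CPM 279-fold lower, and eif2b2, with its main copy 1.51-fold higher and a copy at 1.5 CPM 254-fold lower. They were named after their values were seen.

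**Figure D1:**
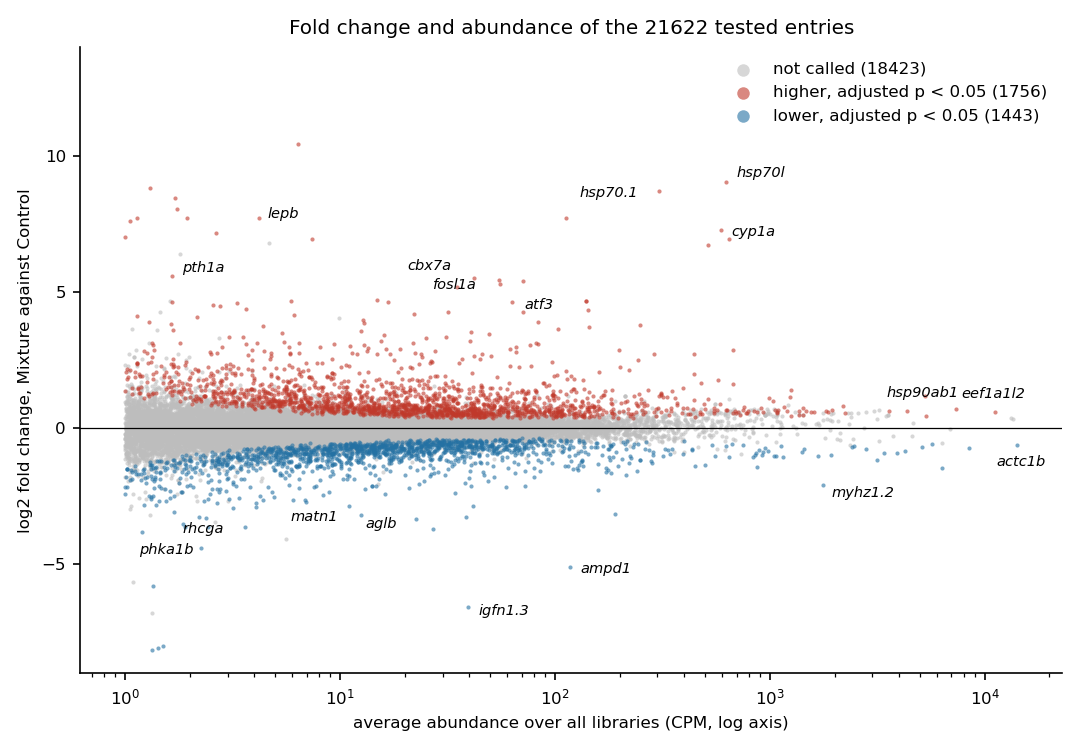
Each point is 1 tested entry, with its average abundance in CPM on a log axis and the log2 fold change of Mixture against Control. The 1756 higher entries are red, the 1443 lower entries blue and the rest grey. The spread of the grey points narrows with abundance. Among the labelled genes hsp70l and cyp1a lie well above 0 and igfn1.3 and ampd1 well below it, and unlabelled scarce entries lie as far out or farther.

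The strongest calls came from muscle, stress and detoxification genes. By p, the 12 leading higher genes were fosl1a, cyp1a, cbx7a, hspb11, cyp1b1, atf3, hspbp1, tcap, cyp1c1, bag3, hspb1 and junbb. The cyp1b1 entry is of the nonsense-mediated decay class, not of the protein-coding class. Of the 12, cbx7a, a polycomb chromatin protein, was 45.4-fold higher (95% interval 32 to 64.5) and belongs to none of the pathway lists used below. The 12 leading lower genes were igfn1.3, aglb, si:dkey-183i3.5, ampd1, tnni2b.2, zgc:136930, synpo2b, ankrd1b, CABZ01044281.1, slc37a4b, rhbg and atp2a1l. Among the lower genes igfn1.3, a muscle protein with immunoglobulin and fibronectin domains, stood at 1.07% of control (93.8-fold lower, 95% interval 66.6 to 132, adjusted p = 1.73e-144). The muscle AMP deaminase ampd1 was 33.8-fold lower (95% interval 18.5 to 61.7), and the glycogen debranching enzyme aglb was 10.1-fold lower (95% interval 7.52 to 13.7). Of the entries over 10 CPM with the largest folds, si:ch211-199o1.2 was 211-fold higher (112 CPM) and si:dkey-183i3.5 was 8.79-fold lower (189.7 CPM); the files give neither a descriptive name. The most abundant called genes were actc1b, a sarcomeric actin at 14189 CPM that was 1.52-fold lower (95% interval 1.15 to 2.01), and eef1a1l2, an elongation factor at 11134 CPM that was 1.5-fold higher (95% interval 1.15 to 1.97).

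Detoxification was led by the Ah receptor targets. Every list here and below was chosen with earlier results of these data known, so counts over lists are a description. Each count reads against the 8.12% higher and 6.67% lower of all entries. Among the receptor targets, 10 of 12 tested rose and 0 fell, and the median log2 change over the 12 was 2.78. The oxidase cyp1a was 155-fold higher (95% interval 100.4 to 240.4, 593 CPM, adjusted p = 9.3e-110), and cyp1c1 was 15.1-fold higher (95% interval 10.9 to 20.9). The forkhead factor foxq1a was 8.77-fold higher and the sulfotransferase sult6b1 5.4-fold higher. Both tested repressors rose, with ahrra 10.2-fold higher and tiparp 2.07-fold higher. The receptor ahr1b fell (1.72-fold lower, 95% interval 1.25 to 2.37), while ahr2 was 1.19-fold above control and did not pass the test.

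Enzymes that conjugate the oxidised products rose in part. Among these enzymes, 13 of 46 tested rose and 1 fell (28.3% and 2.17%, against 8.12% and 6.67% of all entries). The glucuronosyltransferase ugt1a7 was 4.66-fold higher (95% interval 3.31 to 6.56), and the glutathione transferases gstp1 and mgst3b were 3.44- and 2.69-fold higher. The efflux pump abcc2, which exports conjugates into bile, was 2.89-fold higher (95% interval 2.08 to 4.0), within a list of ABC transporters in which 4 of 45 tested members rose (8.89%) and 3 fell (6.67%), shares close to the 8.12% and 6.67% of all entries. Among P450 genes outside family 1, 10 of 49 tested rose (20.4%) and 3 fell (6.12%, near the 6.67% of all entries). The vitamin D breakdown enzyme cyp24a1 was 8.79-fold higher (4.11 CPM). In the Nrf2 list, which holds regulators and antioxidant genes, 15 of 43 tested rose and 3 fell (34.9% and 6.98%). The 10 tested regulators gave 5 higher and 0 lower. Glutathione and thioredoxin genes gave 6 higher and 0 lower of 18. Heme, iron and NADPH genes gave 4 higher and 3 lower of 15. The regulators keap1a and keap1b rose (log2 fold changes 0.76 and 0.82). The second Nrf2 gene nfe2l2b was 8.22-fold higher (95% interval 5.48 to 12.3), glutathione reductase gsr 3.38-fold higher, the autophagy receptor sqstm1 3.75-fold higher and heme oxygenase hmox1a 1.84-fold higher. Neither subunit gene of glutamate-cysteine ligase, the first enzyme of glutathione synthesis, passed the test, with gclc at 1.23-fold and gclm at 1.17-fold above control. The superoxide dismutase of mitochondria, sod2, fell (1.6-fold lower).

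**Figure D2:**
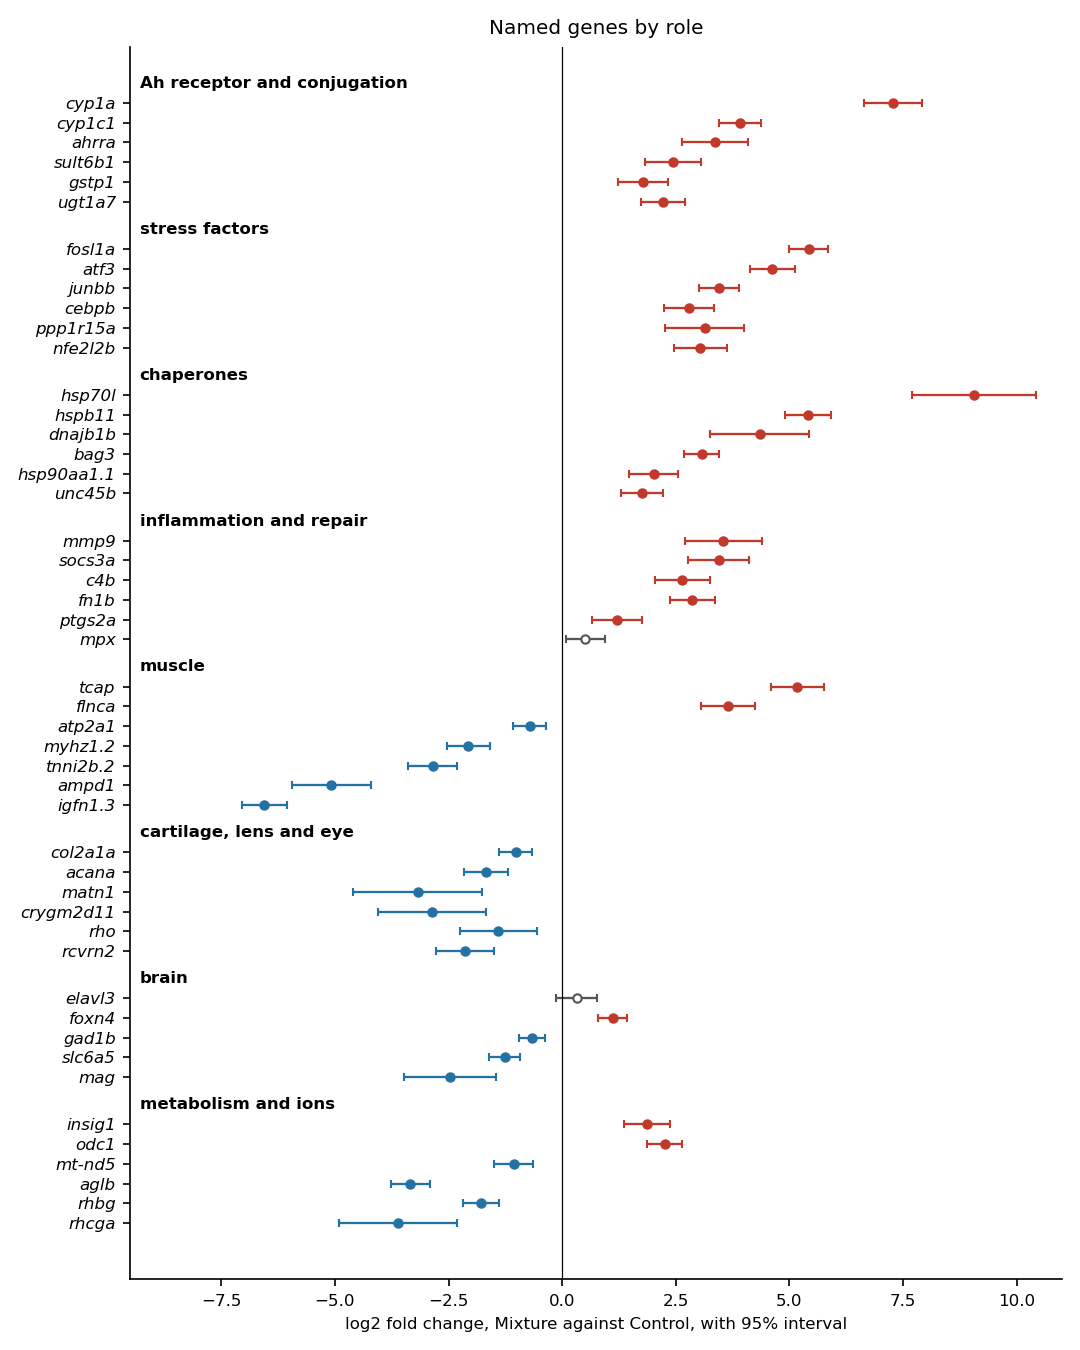
Points are log2 fold changes of named genes, Mixture against Control, and bars are 95% intervals from the implied standard errors. Red points rose, blue points fell, and the open points (mpx and elavl3) did not pass the test. Stress, Ah receptor and inflammation genes lie to the right of 0 and most muscle, cartilage, eye and brain genes to the left.

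Immediate early and integrated stress response factors were called mostly upward. Among immediate early genes, 26 of 46 tested rose and 2 fell (56.5% and 4.35%, against 8.12% and 6.67% of all entries). All 5 tested Fos genes rose, with fosl1a 43.1-fold higher (95% interval 32 to 57.9), fosab 39.1-fold higher and fosb 6.71-fold higher, and 6 of 7 tested Jun, Jdp and Atf3 genes rose, with atf3 24.7-fold higher (95% interval 17.5 to 34.9), jdp2b 14.6-fold higher and junbb 10.9-fold higher. Early growth response genes egr1 and egr2a were 2.75- and 5.74-fold higher, and the phosphatases dusp1 and dusp4, which switch off MAP kinases, were 3.17- and 2.47-fold higher. Of the integrated stress response factors, 9 of 13 tested rose and 0 fell. The transcription factor cebpb was 6.95-fold higher (95% interval 4.76 to 10.1), ddit3 (Chop) 2.42-fold higher, and ppp1r15a, the phosphatase subunit that restores translation, 8.8-fold higher (95% interval 4.8 to 16.1). The 2 zebrafish atf4 genes also rose, atf4a 1.58-fold higher and atf4b 1.43-fold higher. Of the Atf4 targets for amino acids and feedback, 6 of 18 tested rose and 0 fell, and 8 of 22 aminoacyl tRNA synthetase genes rose and 0 fell, among them nars (1.62-fold higher). The unfolded protein response of the endoplasmic reticulum gave few calls. Among its genes, 1 of 31 tested rose and 2 fell, with a median log2 change of -0.12. These shares were 3.23% and 6.45%, against 8.12% and 6.67% of all entries, so the lower share was that of the background. The gene that rose was creb3l3b (log2 fold change 1.77). Its main chaperone hspa5 was 1.41-fold above control and xbp1 1.29-fold, neither past the test.

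Cytosolic chaperones included the largest fold among genes averaging at least 10 CPM. Among heat shock genes, 25 of 63 tested rose and 4 fell (39.7% and 6.35%, the latter near the 6.67% of all entries). The inducible Hsp70 gene hsp70l was 533-fold higher (95% interval 207 to 1373) at 624 CPM, and the neighbouring copies hsp70.1, hsp70.2 and hsp70.3 were 419-, 106- and 125-fold higher. These copies are close paralogs, and how reads divide among them is uncertain. Small heat shock protein genes went both ways, 4 higher and 2 lower of 10 tested (40% and 20%). Among the higher ones hspb11, hspb9 and hspb1 were 42.6-fold higher (95% interval 30.1 to 60.2), 19.5- and 13.2-fold higher. Among partners of Hsp70, dnajb1b was 20.4-fold higher, hspbp1 9.3-fold higher and bag3 8.42-fold higher. Called Hsp90 genes ranged from 13.9-fold for hsp90aa1.2 and 4.03-fold for the muscle gene hsp90aa1.1 to 1.55-fold for the constitutive hsp90ab1 (4356 CPM). The myosin chaperone unc45b was 3.4-fold higher (95% interval 2.47 to 4.68) and the myosin methyltransferase smyd1b 1.51-fold higher. The Hsp90 partner fkbp5, also a glucocorticoid target, fell (3.01-fold lower, 95% interval 1.86 to 4.88). Neither hsf1 (1.27-fold) nor hsf2 (1.15-fold), the factors that drive heat shock genes, passed the test. Of the 8 chaperonin genes 0 passed it by the likelihood ratio test and 1 had an unadjusted p under 0.05, with all 8 above 0. Of 50 proteasome genes 1 rose and 2 fell (2% and 4%, against 8.12% and 6.67% of all entries).

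Several growth arrest genes rose, and few DNA repair genes were called. Among growth arrest and cell death genes, 18 of 46 tested rose and 1 fell (39.1% and 2.17%, against 8.12% and 6.67% of all entries). The arrest gene cdkn1a was 4.7-fold higher (95% interval 3.1 to 7.12), gadd45ba 4.77-fold higher, and the survival factor mcl1a 3.14-fold higher. The ubiquitin ligase gene mdm2 was 1.48-fold above control without passing. Among repair genes, 4 of 63 tested rose and 0 fell, a share of 6.35% against 8.12% of all entries. The called repair genes included ddb2 (1.98-fold higher) and rad23aa (1.51-fold higher), which find bulky DNA lesions. Another coding identifier of ddb2, at 0.716 CPM and so outside the comparison, was lower. Its adjusted p by the likelihood ratio test was 0.0112 over all 35497 entries. How reads divide between the ddb2 identifiers was not tested. Genes of DNA replication and mitosis lay mostly above 0 (72 of 73), with 11 called higher and 0 lower, and a median log2 change of 0.47. The origin licensing factors cdc6 and cdt1 were 2.2- and 1.73-fold higher.

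Calls among inflammatory genes were mostly upward. Among inflammation genes, 30 of 110 tested rose and 2 fell (27.3% and 1.82%, against 8.12% and 6.67% of all entries). The cytokine il1b was 2.52-fold higher (95% interval 1.48 to 4.29) and the chemokine cxcl18b 6.58-fold higher, and leptin b (lepb), a cytokine-like hormone, was 210.3-fold higher (95% interval 44.2 to 1001) at 4.21 CPM. Feedback inhibitors of cytokine signalling rose as a pair, socs3a 10.9-fold higher (95% interval 6.86 to 17.2) and socs3b 5.3-fold higher. Complement genes c4b and c6 were 6.26- and 6.27-fold higher, and the matrix proteases mmp9 and mmp13a 11.7-fold higher (95% interval 6.49 to 21.1) and 6.58-fold higher. A processed transcript of c6, at 0.459 CPM and so outside the comparison, was lower. Its adjusted p by the likelihood ratio test was 0.00958 over all 35497 entries. Of 6 tested antimicrobial and interferon genes 0 were called by the likelihood ratio test, and 0 had an unadjusted p under 0.05. Of 31 tested leukocyte markers 2 rose and 0 fell, at a summed average of 338 CPM over the fit. The share that rose, 6.45%, was near the 8.12% of all entries. The neutrophil peroxidase mpx was 1.42-fold higher (95% interval 1.06 to 1.91) and the macrophage gene mpeg1.1 1.45-fold higher than control, neither past the test, and neither marker was at 0 in the average. The part of these cells in the inflammatory calls was not tested. In whole-body RNA, a change in the number of cells of a type and a change in RNA per cell cannot be told apart.

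Prostaglandin synthesis, the pathway that diclofenac blocks at its cyclooxygenases, gave 7 higher and 1 lower genes of 17 tested. The cyclooxygenases ptgs2b, ptgs2a and ptgs1 were 8.77-fold higher (95% interval 5.09 to 15.1, 6.44 CPM), 2.31- and 1.65-fold higher. The synthase ptges was 2.48-fold higher, and hpgd, which breaks prostaglandins down, fell (1.7-fold lower). Of prostaglandin receptor, transport and breakdown genes, 1 of 12 tested rose and 1 fell. These shares, 8.33% each, were near the 8.12% and 6.67% of all entries. Matrix genes of tissue repair included fibronectin fn1b (7.3-fold higher, 95% interval 5.19 to 10.3, 676 CPM), while its duplicate fn1a was 1.08-fold above control and did not pass. Thrombospondin thbs1a was 2.6-fold higher and the matricellular gene ccn2a 2.11-fold higher. In epithelia, the simple keratins krt8 and krt18a.1 were 1.98- and 2.05-fold higher, and krt15 fell (2.79-fold lower). Of 30 claudin genes 4 rose (13.3%, against 8.12% of all entries), cldn23a the first by p (2.25-fold higher), and 0 fell.

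**Figure D3:**
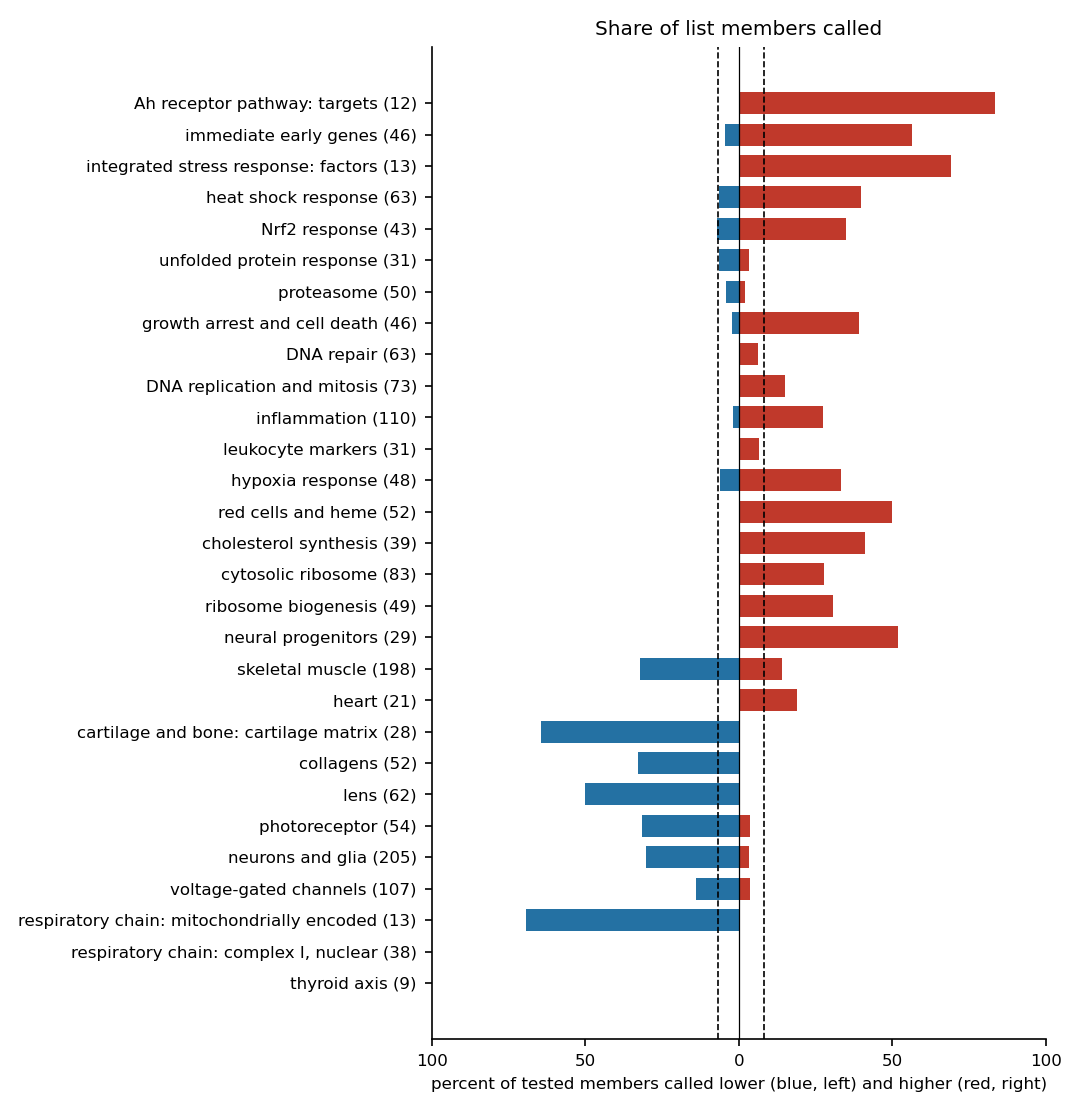
Bars give the percent of the tested members of each list (their number in brackets) that were called higher (red, right) or lower (blue, left), and dashed lines give the 8.12% and 6.67% of all entries. Most stress lists and the red cell and sterol lists extend to the right, and cartilage, lens, eye, neuron and muscle lists mainly to the left. The unfolded protein response and proteasome lists stay inside the dashed lines. The list of voltage-gated channels also holds inward rectifier potassium channels (kcnj).

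Skeletal muscle contracts through thick myosin and thin actin filaments anchored at Z-discs, with calcium released from the sarcoplasmic reticulum by ryanodine receptors and pumped back by Atp2a. Among skeletal muscle genes, 28 of 198 tested rose and 64 fell, shares of 14.1% and 32.3%. Among all entries at 100 to 500 CPM, 15.5% were higher and 7.48% lower, and at 500 CPM or more 22.2% and 13.8%, so the share that rose was not above that of the most abundant entries. Of thick filament and light chain genes, 1 of 20 tested rose and 9 fell, and the fast myosin heavy chains myhz1.2 (1766 CPM) and myhz1.1 (6349 CPM) were 4.18-fold lower (95% interval 3.01 to 5.82) and 2.73-fold lower. The near-identical fast myosin genes may share reads, so the split between them is uncertain. Thin filament genes went both ways, 6 higher and 9 lower of 38 tested, with the fast troponin I gene tnni2b.2 7.22-fold lower (95% interval 4.95 to 10.5) and the heart-type troponin T gene tnnt2c 2.41-fold higher. Of 8 giant protein genes, 5 fell and 0 rose, titin ttn.1 among the lower ones (1.96-fold lower, 95% interval 1.46 to 2.63). Calcium handling genes gave 1 higher and 12 lower of 28 tested, with calsequestrin casq1a 2.89-fold lower (95% interval 2.17 to 3.84), the pump atp2a1 1.64-fold lower (8468 CPM) and its relative atp2a1l 3.32-fold lower. Energy genes gave 0 higher and 12 lower of 25 tested, and the creatine kinases ckma and ckmb were 1.78- and 1.49-fold lower.

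Genes of the Z-disc and of muscle strain held most of the higher muscle genes. Among these genes, 15 of 45 tested rose and 11 fell. The titin cap tcap was 36.2-fold higher (95% interval 24.1 to 54.5), filamin flnca 12.6-fold higher (95% interval 8.33 to 19.1), the Xin protein xirp1 7.46-fold higher and the regeneration gene mustn1b 10.3-fold higher. The ankyrin repeat gene ankrd1a was 8.46-fold higher (95% interval 5.09 to 14.1) and ankrd1b 3.53-fold lower (95% interval 2.71 to 4.59). The synaptopodin-like gene synpo2lb was 2.8-fold higher and synpo2la 1.95-fold lower. At the neuromuscular junction, the fetal acetylcholine receptor subunit chrng was 4.1-fold higher (95% interval 2.37 to 7.1) and its adult counterpart chrne 1.77-fold lower (95% interval 1.37 to 2.28). Of the myogenic factors, myf5 rose (2.32-fold higher), whereas myod1 (1.03-fold below control) and myog (1.04-fold below control) did not pass. Another myog entry, of the nonsense-mediated decay class at 0.671 CPM and so outside the comparison, was higher. Its adjusted p by the likelihood ratio test was 2.43e-05 over all 35497 entries. Heart genes gave 4 higher and 0 lower of 21 tested (19% higher, against 8.12% of all entries). The natriuretic peptide nppb was 2.29-fold higher, and the heart light chain myl7 was 1.04-fold below control without a call.

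Calls among genes of glycogen, glucose and purine use, in lists not confined to muscle, went both ways. The glycogen list below and the purine, one-carbon, cilia, progenitor, early embryo, lysosome and histone lists were chosen after values were seen. Of genes for glycogen breakdown and synthesis, 5 of 27 tested rose and 12 fell. The phosphorylase kinase subunits phkg1b and phka1b were 2.68-fold lower (95% interval 1.88 to 3.83) and 21.2-fold lower (the latter at 2.26 CPM), and muscle phosphorylase pygma was 1.49-fold lower. Of genes for glycolysis and glucose release, 13 of 42 tested rose and 8 fell, with a median log2 fold change of 0.33. The muscle glycolytic enzymes pfkma and pkmb fell (2.77- and 2.94-fold lower), as did the glucose 6-phosphate transporter slc37a4b (2.96-fold lower, 95% interval 2.33 to 3.76), while the glucose-making enzyme pck1 rose (3.03-fold higher, 95% interval 1.76 to 5.24). In the purine nucleotide cycle, which feeds on AMP in working muscle, 1 of 9 tested rose and 3 fell. The genes adss and adssl1 fell with ampd1 (2.49- and 2.2-fold lower), and another AMP deaminase gene, ampd2a, rose (1.71-fold higher). Purine synthesis genes gave 5 higher and 1 lower of 12 tested, with pfas 2.27-fold higher and paics 2.08-fold higher. Of one-carbon and serine genes, 10 of 28 tested rose and 1 fell, with glycine decarboxylase gldc 2.78-fold higher (95% interval 2.25 to 3.42). Ornithine decarboxylase odc1, the first enzyme of polyamine synthesis, was 4.8-fold higher (95% interval 3.67 to 6.27).

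**Figure D4:**
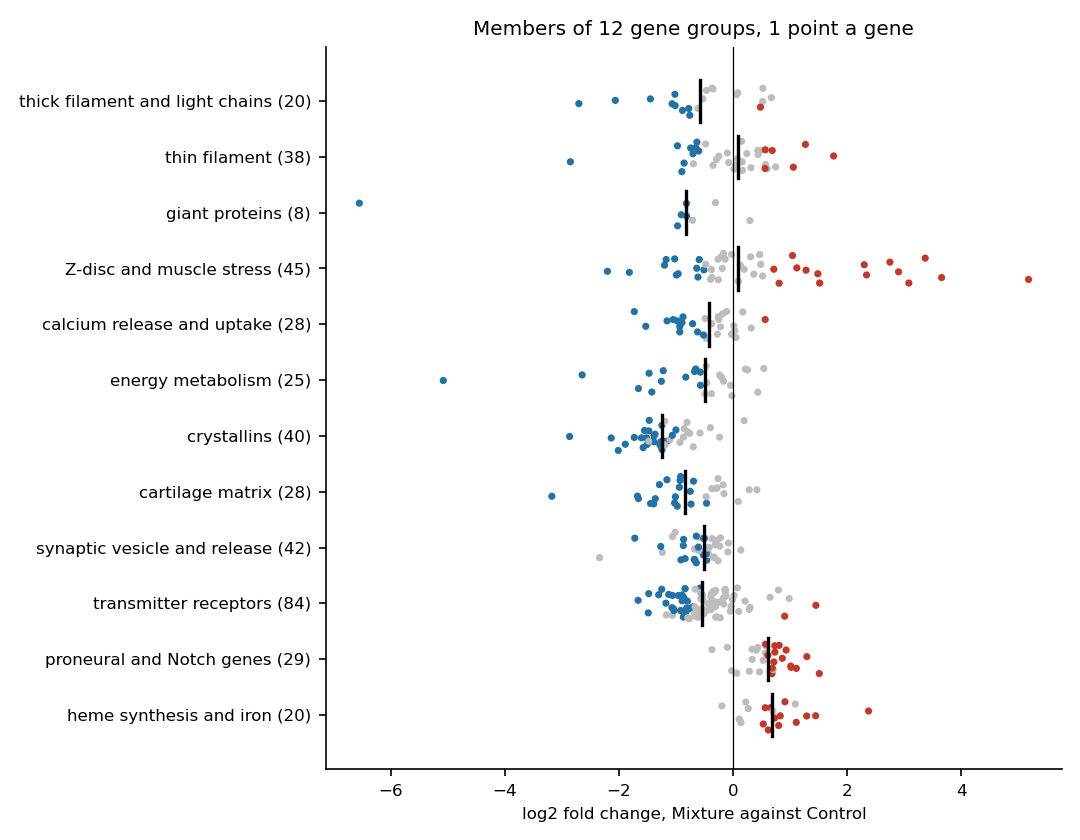
Each point is the log2 fold change of 1 gene, red where higher, blue where lower and grey where not called, in 12 groups with their number of tested genes. Black bars are medians, which run from -1.25 in crystallins to 0.68 in heme and iron genes. Among muscle roles, Z-disc and muscle stress genes reach farthest to the right.

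Most cartilage matrix genes fell and 0 rose. Cartilage is built of type II, IX and XI collagens, aggrecan and matrilins. Among matrix genes, 0 of 28 tested rose and 18 fell (64.3%, against 6.67% of all entries), with a median log2 change of -0.84. Collagen col2a1a (1676 CPM) was 2.04-fold lower (95% interval 1.58 to 2.63), col11a2 2.45-fold lower, aggrecan acana 3.2-fold lower (95% interval 2.29 to 4.46) and matrilin matn1 9.04-fold lower (95% interval 3.37 to 24.3). The hypertrophic cartilage collagen col10a1a was 4.51-fold lower. Of all collagen genes, 0 of 52 tested rose and 17 fell. The chondrocyte regulator sox6 fell (1.65-fold lower), and sox9a was 1.09-fold above control without a call.

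In the eye, calls among lens and photoreceptor genes were mostly downward. Among crystallin genes, 0 of 40 tested rose and 25 fell (62.5%), with a median log2 change of -1.25. Of all entries 6.67% fell, and of those at 500 CPM or more 13.8%. Under 1 CPM, so outside the comparison, crybgx and crygm2f were lower and a second coding identifier of cryaa was higher with no abundance filter. The gamma crystallins of the M class lie in a row on the chromosome. In the gene order of another assembly (GRCz12tu), 20 of them followed each other among the tested and placed symbols, all lower by 2.23- to 7.29-fold. Genes under 1 CPM or not placed were passed over. These near-identical copies may share reads. The lens factor hsf4 was 3.64-fold lower (95% interval 2.26 to 5.85) and the filament gene BFSP1 2.54-fold lower. Aquaporin genes of the lens, mipa and mipb, were 1.75-fold and 1.79-fold below control and did not pass. Of photoreceptor genes, 2 of 54 tested rose and 17 fell (3.7% and 31.5%). Rhodopsin (rho) was 2.65-fold lower (95% interval 1.47 to 4.78), the recoverin gene rcvrn2 4.37-fold lower, the arrestin sagb 3.01-fold lower, and the photoreceptor factor crx 2.62-fold lower at 115 CPM.

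Calls among genes of mature neurons were mostly downward, and those among proneural and Notch genes were upward. Among neuron and glia genes, 7 of 205 tested rose and 62 fell (3.41% and 30.2%, against 8.12% and 6.67% of all entries). The largest role was transmitter receptors, 2 higher and 25 lower of 84 tested, with glutamate receptors grin2da and grin2bb 2.09-fold lower (95% interval 1.52 to 2.86) and 1.76-fold lower and the glycine receptor glra1 1.86-fold lower. Of synaptic vesicle genes, 0 of 42 tested rose and 18 fell (42.9%, against 6.67% of all entries), and 41 of 42 lay below 0. The glycine transporter slc6a5 was 2.41-fold lower (95% interval 1.9 to 3.05), synaptophysin sypb 1.88-fold lower and the release factor stxbp1b 3.3-fold lower. The GABA-making enzyme gad1b and the neuronal RNA-binding gene elavl4 fell (1.58- and 1.69-fold lower), while elavl3, which newborn neurons also express, was 1.25-fold higher than control without passing. Neuropeptide genes gave 2 higher and 0 lower of 17 tested (11.8% higher, against 8.12% of all entries). Myelin-associated glycoprotein mag was 5.55-fold lower (95% interval 2.74 to 11.2) at 1.69 CPM. Of proneural and Notch genes, a list chosen after values were seen, 15 of 29 tested rose and 0 fell, with a median log2 change of 0.61. The progenitor factor foxn4 was 2.16-fold higher (95% interval 1.72 to 2.7), neurog1 2.02-fold higher, and the Notch ligand dla 1.82-fold higher. The list of voltage-gated channels, which also held inward rectifier potassium channels (kcnj), gave 4 higher and 15 lower of 107 tested. These shares were 3.74% and 14%, against 8.12% and 6.67% of all entries. Of 19 tested kcnj genes 4 were higher and 3 lower. The muscle calcium channel cacna1sb was 1.91-fold lower.

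Called factors of the early embryo and linker histones were higher. The early embryo, histone, cilia and lysosome lists were chosen after values were seen, so their counts are a description. Of 11 tested early embryo factors 5 rose and 0 fell, with lin28a 3.69-fold higher (95% interval 2.44 to 5.58), sall4 2.48-fold higher and trim71 2.68-fold higher, a set that keeps stem cells undifferentiated in mammals. All 4 tested linker histone genes rose, led by h1fx (4.37-fold higher, 95% interval 3.5 to 5.46, 220.4 CPM). Foxj1a, the factor that drives motile cilia, was 3.44-fold higher (95% interval 2.78 to 4.25). In the cilia list 7 of 48 tested rose (14.6%, against 8.12% of all entries) and 0 fell. Of lysosome genes, 15 of 55 tested rose and 4 fell, with cathepsin ctsla 2.66-fold higher (95% interval 2.14 to 3.32) at 1256 CPM and the acid phosphatase acp5a 7.15-fold higher.

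Calls among red cell and heme genes were upward in every case. Among red cell and heme genes, 26 of 52 tested rose (50%, against 8.12% of all entries) and 0 fell. Embryonic globins hbbe3, hbbe2 and hbae5, which are neighbours, were 5.74-fold higher (95% interval 3.41 to 9.64), 2.5- and 7.28-fold higher. Heme synthesis genes hmbsb and urod were 2.73- and 1.88-fold higher, the erythroid enzyme alas2 1.44-fold higher, and the erythroid factor gata1a 3.54-fold higher (6.19 CPM). Globin genes share sequence, so reads may be split among them. Of hypoxia-inducible factor targets, 14 of 35 tested rose and 2 fell, with the growth factor binding protein igfbp1a 5.84-fold higher (95% interval 4.09 to 8.33) and the vessel growth factor vegfaa 1.63-fold higher. Of its factors and sensors, 2 of 13 tested rose and 1 fell (15.4% and 7.69%, against 8.12% and 6.67% of all entries). The oxygen sensor egln3 rose (4.03-fold higher, 95% interval 2.24 to 7.26), and egln1b of the same family fell (1.49-fold lower). The factor hif1ab was 1.22-fold above control and hif1aa 1.17-fold, neither past the test. Of endothelial and vessel genes, 4 of 24 tested rose and 0 fell (16.7% higher), with the scavenger receptor stab2 2.59-fold higher and the transcription factor sox18 1.67-fold higher, while the markers kdrl (1.09-fold) and cdh5 (1.11-fold) did not pass.

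Calls among genes of sterol synthesis and of its control, uptake and efflux were upward, with 16 higher and 0 lower of 39 tested. The higher share was 41%, against 8.12% of all entries. The synthesis pathway itself gave 9 higher and 0 lower of 22, and the control, uptake and efflux genes 7 higher and 0 lower of 17. Squalene epoxidase sqlea was 3.3-fold higher (95% interval 2.06 to 5.29), hmgcra, which sets the pace of the pathway, 2.05-fold higher, and the feedback protein insig1 3.67-fold higher (95% interval 2.57 to 5.22). Of fatty acid oxidation enzymes, 1 of 28 tested rose and 4 fell (3.57% and 14.3%, against 8.12% and 6.67% of all entries). The muscle carnitine transferase cpt1b was 2.47-fold lower. The respiratory chain is encoded in nuclear and mitochondrial DNA. Of the 13 genes of mitochondrial DNA, 9 fell and 0 rose, and all 13 were below 0, with mt-nd5 2.09-fold lower (95% interval 1.56 to 2.82), mt-nd2 1.86-fold lower and mt-atp8 2.47-fold lower. Of 38 nuclear genes of complex I, 0 were called by the likelihood ratio test and 0 had an unadjusted p under 0.05. Of 34 nuclear genes of complexes II to IV 1 rose, cox4i1l (4.43-fold higher). Ribosomal protein genes gave 23 higher and 0 lower of 83 tested, with 82 of 83 above 0 and a median log2 change of 0.58. The share called higher was 27.7%, against 8.12% of all entries and 22.2% of all entries at 500 CPM or more. Among the higher genes rpl13 was 1.54-fold higher. Ribosome biogenesis genes gave 15 higher and 0 lower of 49 tested, with ddx21 1.95-fold higher.

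Ion transport and hormone genes held a few large changes. Of genes of ionocytes (ion-transporting cells) and ammonia transport, 4 of 29 tested rose and 4 fell, with a median log2 change of 0.02. These shares were 13.8% each, against 8.12% and 6.67% of all entries. The ammonia transporters of gill and skin, rhbg and rhcga, fell. The gene rhbg was 3.47-fold lower (95% interval 2.64 to 4.56) at 80.0 CPM and rhcga 12.2-fold lower (95% interval 4.98 to 29.9) at 3.61 CPM. Prolactin (prl), a hormone of ion balance in fish, was 2.88-fold higher (95% interval 2.06 to 4.02). The parathyroid hormone genes pth1a and pth1b were 48.1- and 24.3-fold higher, at 1.65 and 3.33 CPM. The monocarboxylate transporters slc16a9a and slc16a9b were 9.24-fold higher (95% interval 6.14 to 13.9) and 7.91-fold higher. Of 9 tested thyroid axis genes 0 were called by the likelihood ratio test, and 0 had an unadjusted p under 0.05. Circadian genes gave 7 higher and 4 lower of 41 tested (17.1% and 9.76%, against 8.12% and 6.67% of all entries). The activators roraa and rorab were lower (2.4- and 2.2-fold lower) and per2 higher (2.0-fold higher).

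Zebrafish carry many gene pairs left by the genome duplication of teleost fish, often marked by a final a or b. Pairs were taken here as symbols that differ only in that letter, and their origin was not checked. Of 2293 such symbol pairs, 124 had both copies called and 602 had 1 copy called. Of the 124, 104 went in the same direction (48 higher and 56 lower) and 20 in opposite directions. At least 1 copy was called in 31.7% of pairs, against 14.8% of all single entries. How many pairs of unrelated genes would have 1 or both called was not computed, so these counts are a description. Across pairs, which are not independent replicates, the correlation of the 2 log2 fold changes was 0.29. Pairs that rose together included junba and junbb (6.57- and 10.9-fold higher) and arrdc3a and arrdc3b (2.95- and 4.25-fold higher). The mitochondrial creatine kinases ckmt2a and ckmt2b fell together (6.26- and 2.34-fold lower). Besides the Z-disc pairs above, the ryanodine receptor ryr1a was 1.48-fold higher (95% interval 1.19 to 1.83) and ryr1b 1.97-fold lower (95% interval 1.55 to 2.5), and the transketolase tktb was 2.32-fold higher and tkta 1.65-fold lower. The abra genes, actin-binding activators of serum response factor, also parted, abraa 2.82-fold higher and abrab 1.6-fold lower. The difference between copies was not tested.

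**Figure D5:**
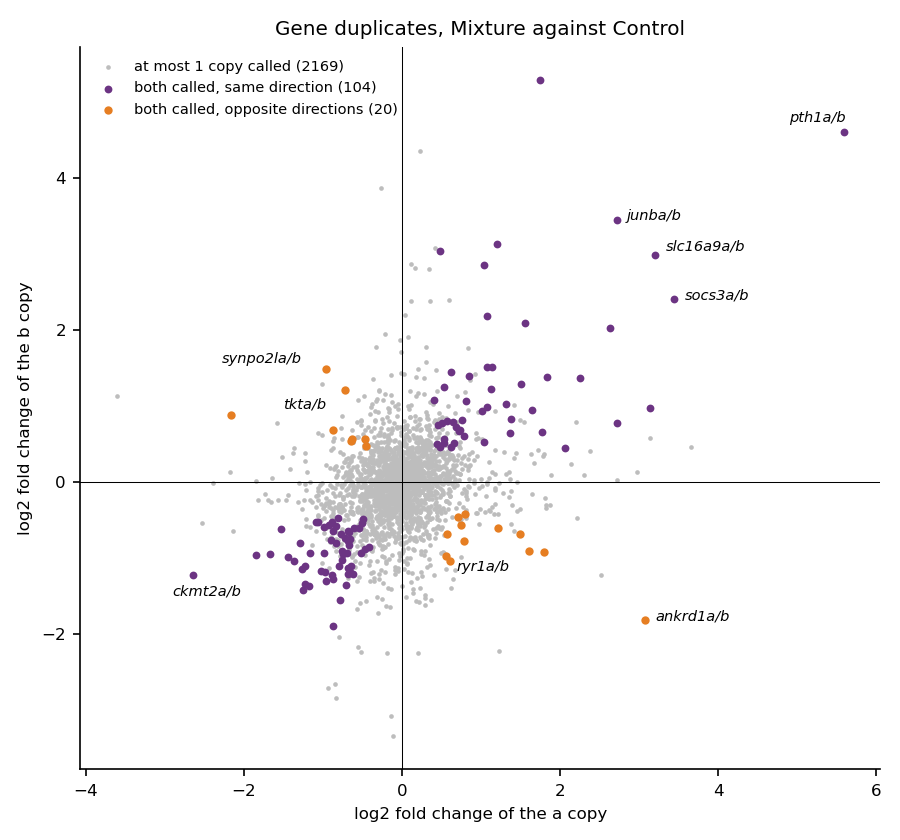
Each point is a pair of symbols that differ only in a final a or b. The log2 fold change of the a copy is on the horizontal axis and that of the b copy on the vertical axis. Purple points are the 104 pairs called in the same direction, orange points the 20 in opposite directions and grey points the other 2169. The ankrd1 pair lies farthest into the opposite corner.

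Some genes had entries of several transcript classes. Of 916 pairs of a coding and a non-coding class (839 genes), 32 had both called, 30 in the same direction. The retained intron of hsph1, an Hsp110 chaperone, was 124-fold higher (7.41 CPM) and its coding class 15.7-fold higher. For the cyclin gene ccng1 the retained intron was 16.8-fold higher (2.16 CPM) and the coding class 1.47-fold higher. Both genes were named after their values were seen. In 2 genes the classes went opposite ways. The sodium pump gene atp1a1a.4 was 1.54-fold higher in its coding class and 2.17-fold lower in its retained intron, and the nucleoside transporter slc29a2 was 1.52-fold higher and 1.86-fold lower. The differences between classes were not tested.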

How the data were processed

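Per the labels' protocols, polyA RNA of whole bodies was read from both ends over 150 bases, at a scale of 40000000 to 80000000 reads. The tools kallisto, edgeR and limma and the GRCz11 genome stand in the submitters' processing notes with no version, and filters and scaling are not stated there. The analysis started from the authors' deposited table of comparisons, in which the 3 Mixture and 3 Control libraries are already combined and other libraries may have entered the fit. The deposited fold changes and average abundances are on a log scale, per the file headers, which state no base. The deposited values were taken as log2, since 2 to the power of the averages summed to 1.01e+06. The average was identical in all 3 deposited columns, so it covers the whole fit. The likelihood ratio, as deposited, is an open-ended score. The deposited p-value equalled its chi-square tail on 1 degree of freedom to a relative difference of 9.07e-13, so it is unadjusted and two-sided.

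From these values the adjusted p (Benjamini-Hochberg, threshold 0.05), the implied standard error (size of the log2 fold change over the root of the likelihood ratio) and the 95% interval (1.96 standard errors) were computed in Python 3.11.15 with numpy 2.4.6, pandas 2.3.3 and scipy 1.17.1. The computation was run on simulated data built from the implied standard errors. That run checks the code and cannot show whether the intervals hold for count data. Depth and spread per library are unknown from the table, so p-values rest on the authors' model, and on libraries whose independence the labels state. Lists, 68 in all with 2986 tested symbols, were read with the most abundant entry per symbol. In all 27 symbols were matched through older names from a RefSeq table (GRCz12tu, used for names and gene order only), 489 listed symbols were under 1 CPM and 64 were not matched. Members and lists were chosen with earlier results of these data known. Named genes were the leading 12 by p, 8 by fold and 6 by abundance in each direction, up to 4 called members and the first 3 symbols of each list role, and leading duplicates, families and opposite classes, with exceptions stated. Of 43 tissue markers 39 were tested, covering all 20 tissues. The alternatives were no abundance filter, at least 5 CPM, at least 2-fold, a log fold change of at least 1.5 (the limit in the authors' column descriptions), Benjamini-Yekutieli adjustment, median-centred fold changes, 1 entry per symbol and protein-coding entries alone. Some named genes are not reported here.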

Additional observations from a re-analysis of the deposited data

Results flagged for a closer look

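Entries averaging under 1 CPM were outside the comparison. With no abundance filter and adjustment over all 35497 entries, 246 of these 13875 entries (1.77%) had an adjusted p under 0.05, 150 higher and 96 lower, which put a signal in data the comparison left aside. The 4 with the smallest p were a processed transcript of znf395a (0.860 CPM, adjusted p = 8.48e-07, higher), a retained intron of apoa4b.2 (0.714 CPM, adjusted p = 1.32e-06, lower), the glucuronosyltransferase ugt1b4 (0.986 CPM, adjusted p = 2.37e-06, higher) and si:ch211-14a17.10 (0.836 CPM, adjusted p = 6.03e-06, higher). These are p-values of the authors' likelihood ratio test, and the table holds no values per library with which to see whether 1 library carries them.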

How the results depend on the processing

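Of 3199 called entries (1756 higher, 1443 lower), 1324 (770 and 554) also passed 2-fold and 546 (351 and 195) a log fold change of 1.5, and 1551 (890 and 661) passed the Benjamini-Yekutieli adjustment. Called list members went from 870 to 409, 187 and 516 under these settings, and named genes called from 467 to 282 at 2-fold and 159 at a log fold change of 1.5. Genes with opposite transcript classes went from 2 to 1 at 5 CPM. The other alternatives run kept these counts and those of duplicates within 1.5 times. No called named gene reversed direction, but the settings fixed this in advance. Only median centring alters a fold change, by 0.0177 log2 units, and the smallest fold called was 1.28. Named genes without a call were not followed for direction, and centring puts those that lay less than 0.0177 above 0 below it. The Benjamini-Yekutieli adjustment ended 100 calls among named genes, no abundance filter 19, median centring 5 and the other tested-set settings 0 among genes still tested. Since genes also left the tested set, named genes called went from 467 to 410 at 5 CPM and 465 with protein-coding entries alone. Counts per list moved by more than 1.5 times in 67 of 136 cases under Benjamini-Yekutieli, in 18 of 134 at 5 CPM, in 15 with no abundance filter, in 7 under centring and in 1 with 1 entry per symbol. The fold settings lower counts by construction.

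No paired analysis was possible because the deposited table holds comparisons and no values per library. For the same reason edgeR's quasi-likelihood test, DESeq2 and leaving out a replicate were not run. Promoter motif shares were not run, since no promoter sequences were used here.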

Other observations

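Symbol families, taken as symbols that share their leading letters, showed further groups, which the lists cover only in part or not at all. Of 18 tested asb genes, which encode ankyrin repeat proteins of ubiquitin ligases, 7 were lower (38.9%, against 6.67% of all entries) and 0 higher, with asb10 6.05-fold lower and asb2a.1 2.36-fold lower. Of 30 semaphorin (sema) genes, guidance cues of axons and vessels, 7 were lower (23.3%) and 0 higher. Of 13 irf genes, which include the interferon regulatory factors, 6 were higher (46.2%, against 8.12% of all entries) and 1 lower, with irf9 4.74-fold and irf1b 6.76-fold higher. Of 13 sodium channel (scn) genes 4 were lower (30.8%) and 0 higher, the muscle genes scn4ba (2.34-fold lower) and scn4ab (1.5-fold lower) among them. These 4 of 203 families were picked for their shares, sema outside the rule for named genes and after its values were seen, so the counts are a description. Other families had shares as high, such as dusp (40% higher), klf (26.3% higher) and cdh (25% lower).

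Runs of neighbouring genes called in 1 direction were counted along the gene order of GRCz12tu, in which 16060 of 19195 symbols could be placed. Genes under 1 CPM or not placed were passed over, so neighbours need not be adjacent. There were 30 runs of at least 3 genes, and how many the shares called would give by themselves was not computed. The longest run was the row of 20 crystallin genes. Among the others were hbbe3, hbbe2 and hbae5 (2.5- to 7.28-fold higher), the sodium pump genes atp1a1a.4, atp1a1a.1 and atp1a1a.2 (1.48- to 1.55-fold higher) and a row that ends in igfn1.3 and igfn1.1 (1.62- to 93.8-fold lower).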
